A study of Mus musculus with 40 samples.

Results

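The androgen-responsive transcripts of the mouse kidney described here are 33 genes out of 55401 in the count table, picked by symbol from a list of androgen-induced and androgen-repressed genes of the proximal tubule. The members were chosen with earlier results of these data known, so their counts beside all genes are not an independent test. All 33 symbols matched exactly 1 row. From general knowledge of the mouse kidney, 16 were taken as androgen-induced, 5 as androgen-repressed and 12 were left without an assigned direction. The question for each was whether its level differed between diabetic Akita mice and wild type (WT) mice, in each of 4 treatments.

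Renal cortex RNA was sequenced from 40 male C57BL/6J mice, 1 library per animal. Ins2-Akita heterozygous mice carry a mutant insulin gene whose product misfolds in pancreatic beta cells and become diabetic. Their WT littermates served as non-diabetic controls. Mice of both genotypes were gavaged from 6 to 22 weeks of age with an ethanol vehicle (10% in water), with MitoGamide at 10 mg/kg, a mitochondria-targeted scavenger of dicarbonyls, with water, or with MitoQ in water, a mitochondria-targeted quinone antioxidant whose dose the sample labels do not give. Each of the 8 combinations of genotype and treatment held 5 mice. No group was castrated or given hormone, and circulating androgen was not analysed here.

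Androgens reach the proximal tubule from the circulation and change the transcription of many of its genes. In mice the male kidney expresses many proximal tubule transporters and cytochrome P450 enzymes at other levels than the female kidney, and castration or androgen treatment moves these genes toward the other sex. Kap, Gusb and Odc1 are the classical androgen-induced genes of this organ, while Prlr and Slc7a12 are typical of the female pattern.

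Several steroid hormone receptors bind inverted repeats of the hexamer AGAACA, which reads TGTTCT on the opposite strand. RefSeq start sites on GRCm38 were taken for members on chromosomes other than the one carrying Cndp2, which was left out. They matched 25 of the 33 members, with 31 windows. The 250 bases before each start were searched on both strands. At least 1 hexamer lay in 6 of these 31 windows, or 19.4%, against 16.1% of all 32851 RefSeq windows of that length. No chromosome was left out of that larger set. The windows with a hexamer belonged to 5 members, Cyp4b1, Prlr, Cyp2d26, Hsd3b2 and Hsd3b4, the last through 2 start sites. None of the 31 held the full inverted repeat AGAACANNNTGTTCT, which was in 3 of the 32851 windows. Kap and Slco1a1 are printed as a classical marker and as the member with the most negative joint fold change, and the other 4 because they hold a hexamer, written in capitals, in the 250 bases before the start at chr6:133853668-133853917 (minus strand), chr6:141946963-141947212 (minus strand), chr4:115647722-115647971 (minus strand), chr3:98724544-98724793 (minus strand), chr15:82794246-82794495 (minus strand) and the downstream start of Prlr at chr15:10223656-10223905 (plus strand).
Kap: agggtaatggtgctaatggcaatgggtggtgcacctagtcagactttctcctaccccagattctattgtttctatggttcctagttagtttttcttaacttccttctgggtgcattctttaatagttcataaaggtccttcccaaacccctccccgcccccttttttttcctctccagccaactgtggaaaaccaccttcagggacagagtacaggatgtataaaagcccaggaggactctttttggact
Slco1a1: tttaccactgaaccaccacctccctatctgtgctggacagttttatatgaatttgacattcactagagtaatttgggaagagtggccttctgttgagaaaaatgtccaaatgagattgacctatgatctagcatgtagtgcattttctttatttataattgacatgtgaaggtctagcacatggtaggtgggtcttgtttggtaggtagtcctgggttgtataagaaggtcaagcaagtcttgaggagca
Cyp4b1: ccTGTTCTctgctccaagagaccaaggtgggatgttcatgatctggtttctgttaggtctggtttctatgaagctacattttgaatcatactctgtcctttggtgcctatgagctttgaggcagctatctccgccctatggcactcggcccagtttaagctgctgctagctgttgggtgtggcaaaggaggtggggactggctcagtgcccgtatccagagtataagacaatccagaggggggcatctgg
Hsd3b2: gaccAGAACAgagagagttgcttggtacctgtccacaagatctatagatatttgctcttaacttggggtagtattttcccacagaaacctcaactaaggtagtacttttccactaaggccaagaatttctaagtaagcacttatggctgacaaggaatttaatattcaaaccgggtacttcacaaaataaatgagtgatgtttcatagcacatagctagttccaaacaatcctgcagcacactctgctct
Cyp2d26: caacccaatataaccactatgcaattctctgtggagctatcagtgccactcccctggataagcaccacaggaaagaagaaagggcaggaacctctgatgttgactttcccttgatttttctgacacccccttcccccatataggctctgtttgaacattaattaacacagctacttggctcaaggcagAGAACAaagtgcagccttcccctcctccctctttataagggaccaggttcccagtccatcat
Prlr: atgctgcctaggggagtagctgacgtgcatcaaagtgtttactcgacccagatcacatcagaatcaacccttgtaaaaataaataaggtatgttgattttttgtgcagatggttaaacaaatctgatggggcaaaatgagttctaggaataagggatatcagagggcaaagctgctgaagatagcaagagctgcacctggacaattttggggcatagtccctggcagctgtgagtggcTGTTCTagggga

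The hexamer began 248 bases before the start in Cyp4b1, 246 in Hsd3b2, 62 in Cyp2d26 and 12 in the downstream start of Prlr. Cyp4b1 and Hsd3b2 were lower and Cyp2d26 and Prlr higher in Akita kidneys, and Hsd3b4, with 2 of the 6 windows, was not called. A match of these letters is a description of the window and not a binding site.

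Library totals ran from 9106654 to 24321424 estimated counts. Levels are given below as CPM, counts relative to library size after TMM scaling over all 40 libraries, and the values of a group stand in the order of its replicates 1 to 5. The 12 general proximal tubule markers, among them Lrp2, Slc34a1 and Slc5a2, summed to 10713 to 20779.9 CPM over all libraries, so the tissue carried its defining cell type. That sum was 16921 to 20779.9 CPM in WT and 13217 to 17498 CPM in Akita mice on ethanol, and 18020.5 to 19768 CPM in WT and 12996 to 16143 CPM in Akita mice on MitoGamide, with 4 of the 12 markers called lower and none higher in each. The genotypes overlapped on ethanol but not on MitoGamide. They also overlapped on water (10922 to 18676 CPM in WT, 10713 to 16102 CPM in Akita) and on MitoQ (11070.0 to 18449 CPM in WT, 11323 to 16452 CPM in Akita). Of 4 collecting duct principal cell markers all 4 rose over the treatments together. On ethanol their sums overlapped (128 to 169.8 CPM in WT, 152 to 231 CPM in Akita mice), with 2 of the 4 called. On MitoGamide the sums did not overlap (104 to 143 CPM in WT, 168 to 284 CPM in Akita mice), with all 4 called. None was called on water, where the sums overlapped, or on MitoQ, where they did not. Over the treatments together 3 of 5 podocyte markers rose and none fell, and 3 of the 5 immune markers tested fell and none rose. In the same fit 2 of 4 endothelial markers rose and 1 fell. There 1 of 3 thick ascending limb and 1 of 5 hepatocyte markers fell. There also 1 of 3 distal convoluted tubule and 1 of 4 fibroblast and pericyte markers rose. These stand beside 11.8% of all genes that fell and 11.0% that rose. Immune sums were 137 to 178 CPM in WT and 85.1 to 119 CPM in Akita mice on MitoQ, where the genotypes did not overlap. They were 149 to 228 CPM in WT and 102 to 171 CPM in Akita mice on ethanol, where the genotypes overlapped. The immune sums overlapped on MitoGamide and not on water. The part of these marker differences in the results below was not tested, and in whole cortex fewer proximal tubule cells and less RNA per cell cannot be told apart. WT water replicate 1 stood apart by hepatocyte markers (407 CPM against at most 71.9 CPM elsewhere), and WT MitoQ replicate 3 by its TMM factor of 0.505.

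Most members were lower in Akita than in WT kidneys. Because the list was chosen with earlier results known, the shares of all genes beside it are descriptive only. On ethanol 21 of the 33 fell and 4 rose (edgeR, adjusted p under 0.05), beside 8.22% of all 17747 genes tested that fell and 8.18% that rose. The members' median log2 fold change was -0.86 against -0.0021 for all genes tested. In 21 members every Akita mouse was below every WT mouse and in 1 above, where 13.0% of all genes were without overlap in either direction. On MitoGamide 17 of 32 tested members fell and 1 rose, beside 6.60% and 7.71% of all genes (11 fell without Akita MitoGamide replicate 2, and the 1 rise was lost in 6 of 10 fits that each left out 1 mouse), and 21 had no overlap against 12.4% of all genes.

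Fewer members passed the test in the other arm. On water 5 fell and 2 rose, beside 0.366% and 0.186% of all 18304 genes tested, with 2 (without Akita water replicate 4) to 6 lower and 0 to 2 higher when 1 mouse was left out, although 26 of the 33 had an unadjusted p under 0.05, as did 7.56% of all genes, and the members' median log2 difference was -1.10. No overlap was seen in 16 members, 14 of them lower, against 2.53% of all genes. On MitoQ 1 member fell and none rose, beside 0.292% and 0.265% of all genes (0 to 6 lower when 1 mouse was left out, 6 without WT MitoQ replicate 3), with 22 members and 9.06% of all genes at an unadjusted p under 0.05, 8 members without overlap against 2.93% of all genes, and a median of -0.89. DESeq2 called 15 members lower on water, beside 1.29% of all genes, and 8 lower and 3 higher on MitoQ, beside 1.16% and 1.12%. Fitted over all 40 mice with treatment as a term, 25 of the 33 members fell and 4 rose, beside 11.8% and 11.0% of all 17769 genes. These counts were 25 lower and 5 higher without the 3 Akita mice of lowest Kap, described below, beside 9.40% and 11.0% of all genes in that fit. Without WT water replicate 1 and WT MitoQ replicate 3 they were 24 lower and 5 higher, beside 10.8% and 14.2% of all genes.

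**Figure D1:**
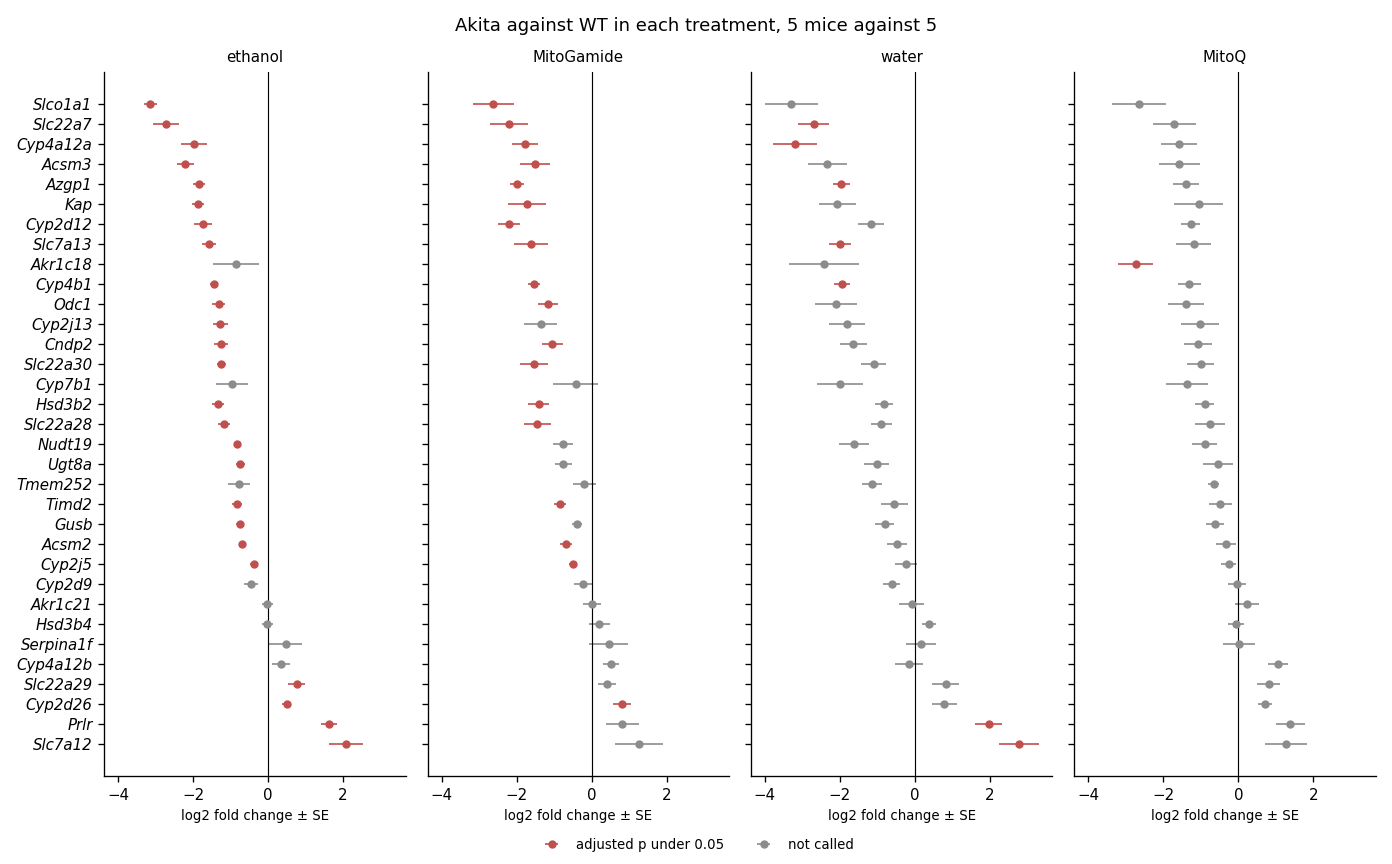
Log2 fold change of each of the 33 members in Akita against WT mice (x axis, ± SE, 5 mice against 5) in each treatment, ordered by the fit over 4 treatments, with called members in red. Slco1a1, at the top, lies between -2.61 and -3.29 in all 4 panels, Prlr and Slc7a12 lie to the right of 0, and Akr1c18 has no value on MitoGamide.

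By class, 12 of the 16 androgen-induced genes fell on ethanol, 9 on MitoGamide, 3 on water and none on MitoQ. The shares of all genes that fell were 8.22%, 6.60%, 0.366% and 0.292% in the same order. Of the 3 on water, Cyp4b1 kept its call in 10 of 10 fits that each left out 1 mouse, Slc7a13 in 9 and Cyp4a12a in 3. On MitoQ 11 of the 16 had an unadjusted p under 0.05, beside 9.06% of all genes, and 14 of 16 had a negative fold change. None of the 16 rose by edgeR, whereas DESeq2 called Cyp4a12b higher on MitoQ. Over the 4 treatments together 14 fell, with a median log2 fold change of -1.31, beside 11.8% of all genes that fell and 11.0% that rose. In that joint fit, of the 5 androgen-repressed genes Slc7a12 and Prlr rose, and Slc22a7, Timd2 and Akr1c18 fell. Of the 12 genes without an assigned direction 8 fell and Cyp2d26 and Slc22a29 rose.

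Kap encodes kidney androgen-regulated protein, a small proximal tubule product, at chr6:133849851-133853762 on the minus strand. Kap stood at 11231, 8726, 10365, 10424 and 7124 CPM in the WT mice given ethanol and at 2751, 2048, 2074, 2954 and 3060.0 CPM in the Akita mice. The levels of Kap on MitoGamide were 10673, 10174, 9726, 9475 and 10034 CPM in WT mice and 3144, 3316, 1622, 6279 and 401 CPM in Akita mice. For Kap, every Akita mouse was below every WT mouse on ethanol and on MitoGamide alike. With water, Kap was 9838, 5115, 4129, 5049 and 8187 CPM in WT and 2002, 789.8, 2894, 366 and 1720.1 CPM in Akita kidneys. Under MitoQ, Kap was 7019, 8033, 3347, 7502 and 7971 CPM in WT and 5142, 4639.8, 3176, 122 and 3179 CPM in Akita kidneys. For Kap, every Akita mouse was below every WT mouse on water, while the genotypes overlapped on MitoQ. Kap had a log2 fold change of -1.69 ± 0.27 (SE) with the 4 treatments together, at an edgeR adjusted p of 6.4e-06. By treatment Kap fell in Akita mice at log2 fold changes of -1.88 ± 0.16 (SE) on ethanol (edgeR adjusted p 1.2e-05) and -1.72 ± 0.50 (SE) on MitoGamide (edgeR adjusted p 0.04). For Kap the log2 difference was -2.07 ± 0.50 (SE) on water (edgeR adjusted p 0.13) and -1.06 ± 0.64 (SE) on MitoQ (edgeR adjusted p 0.74), and edgeR called neither. DESeq2 called Kap lower on water (DESeq2 adjusted p 0.00095). The MitoGamide call of Kap held in 2 of 10 fits that each left out 1 mouse. The Akita values of Kap on MitoQ ran from 122 to 5142 CPM.

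Odc1 encodes ornithine decarboxylase, the rate-limiting enzyme of polyamine synthesis, at chr12:17544794-17551505 on the plus strand. Odc1 stood at 872, 745, 580.2, 627 and 756 CPM in the WT mice given ethanol and at 360.0, 349.9, 198, 206 and 309 CPM in the Akita mice. The levels of Odc1 on MitoGamide were 605, 471, 903, 808 and 866 CPM in WT mice and 412, 363, 318, 351 and 147 CPM in Akita mice. For Odc1, every Akita mouse was below every WT mouse on ethanol and on MitoGamide alike. With water, Odc1 was 1168, 226, 172, 369 and 908 CPM in WT and 221, 54.1, 149.7, 151 and 85.3 CPM in Akita kidneys. Under MitoQ, Odc1 was 314, 546, 122, 991 and 459 CPM in WT and 340.1, 169, 136, 84.3 and 198 CPM in Akita kidneys. For Odc1, the genotypes overlapped both on water and on MitoQ. Odc1 had a log2 fold change of -1.504 ± 0.22 (SE) with the 4 treatments together, at an edgeR adjusted p of 1.7e-06. By treatment Odc1 fell in Akita mice at log2 fold changes of -1.31 ± 0.18 (SE) on ethanol (edgeR adjusted p 0.0003) and -1.16 ± 0.26 (SE) on MitoGamide (edgeR adjusted p 0.013). For Odc1 the log2 difference was -2.11 ± 0.56 (SE) on water (edgeR adjusted p 0.18) and -1.39 ± 0.48 (SE) on MitoQ (edgeR adjusted p 0.32), and edgeR called neither. DESeq2 called Odc1 lower on water (DESeq2 adjusted p 0.0056). Of the 31-base words of its transcripts, 31.3% also occur in another gene, 19.4% of all words in Gm7993, and how the counts were split was not tested. The ethanol and MitoGamide calls of Odc1 were lost when all 40 libraries shared 1 dispersion fit (edgeR adjusted p 0.081 and 0.072).

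Gusb encodes the lysosomal enzyme beta-glucuronidase, at chr5:129989011-130003049 on the minus strand. Gusb stood at 30.04, 26.7, 31.3, 29.3 and 29.96 CPM in the WT mice given ethanol and at 19.2, 18.5, 12.2, 17.3 and 19.1 CPM in the Akita mice. The levels of Gusb on MitoGamide were 21.5, 21.6, 26.8, 20.05 and 26.8 CPM in WT mice and 16.8, 18.6, 16.4, 22.1 and 13.98 CPM in Akita mice. For Gusb, every Akita mouse was below every WT mouse on ethanol, while the genotypes overlapped on MitoGamide. With water, Gusb was 42.4, 18.6, 19.7, 19.1 and 30.5 CPM in WT and 16.2, 11.2, 16.1, 13.9 and 17.3 CPM in Akita kidneys. Under MitoQ, Gusb was 20.2, 27.8, 9.95, 29.6 and 23.7 CPM in WT and 18.9, 14.3, 12.9, 11.6 and 15.6 CPM in Akita kidneys. For Gusb, every Akita mouse was below every WT mouse on water, while the genotypes overlapped on MitoQ. Gusb had a log2 fold change of -0.65 ± 0.10 (SE) with the 4 treatments together, at an edgeR adjusted p of 3.8e-06. By treatment Gusb fell in Akita mice at a log2 fold change of -0.75 ± 0.10 (SE) on ethanol (edgeR adjusted p 0.00039). For Gusb the log2 difference was -0.38 ± 0.14 (SE) on MitoGamide (edgeR adjusted p 0.082), -0.81 ± 0.25 (SE) on water (edgeR adjusted p 0.28) and -0.62 ± 0.24 (SE) on MitoQ (edgeR adjusted p 0.42), and edgeR called none of these. Gusb had the smallest joint fold change of these 3 classical genes.

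**Figure D2:**
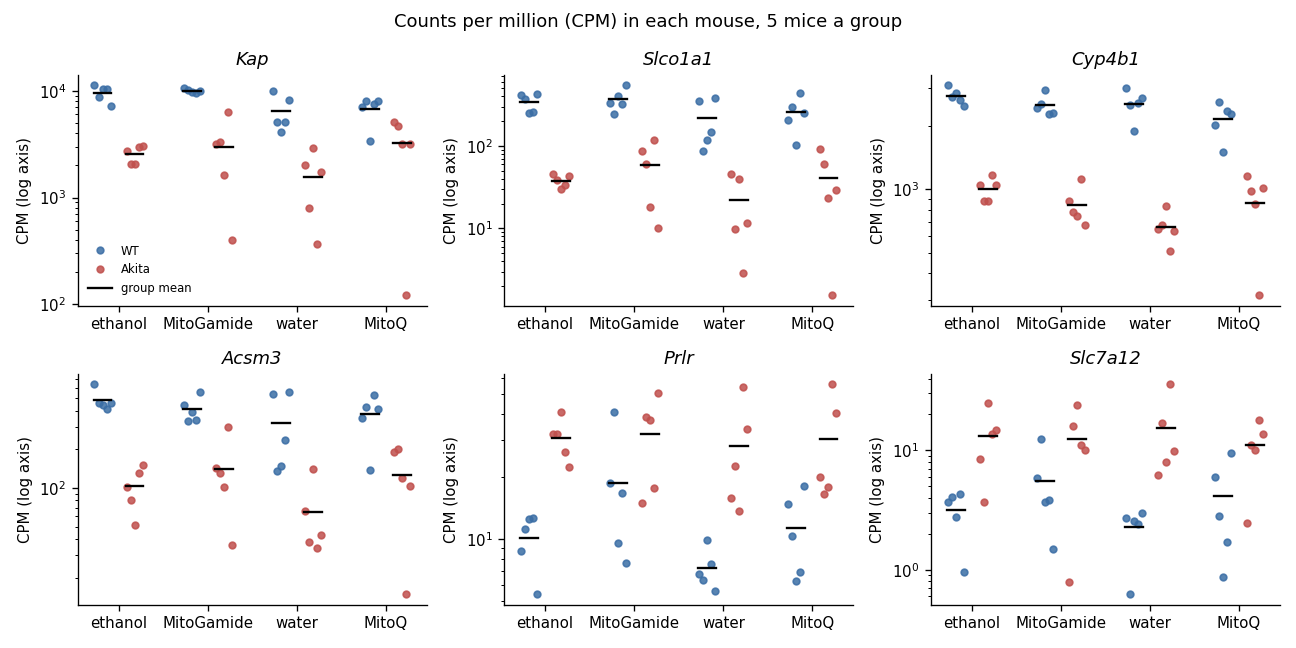
CPM on a log axis of 6 members in each mouse, by treatment (x axis), with WT mice in blue, Akita mice in red, 5 mice a group, and black bars at the group mean. In Kap, Slco1a1, Cyp4b1 and Acsm3 the Akita means lie below the WT means in each treatment, in Prlr and Slc7a12 above, and 1 Akita mouse on MitoQ lies at 122 CPM of Kap.

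Slco1a1 encodes an organic anion transporter of the brush border, at chr6:141907282-141946962 on the minus strand, and had the most negative joint fold change of the 33. Slco1a1 stood at 413, 372, 249, 259 and 421 CPM in the WT mice given ethanol and at 45.1, 38.8, 29.9, 33.6 and 43.2 CPM in the Akita mice. The levels of Slco1a1 on MitoGamide were 335, 244, 403, 322 and 544 CPM in WT mice and 86.8, 60.6, 18.2, 118 and 10.01 CPM in Akita mice. For Slco1a1, every Akita mouse was below every WT mouse on ethanol and on MitoGamide alike. With water, Slco1a1 was 353, 86.9, 118, 148 and 379 CPM in WT and 46.2, 9.93, 40.2, 2.92 and 11.8 CPM in Akita kidneys. Under MitoQ, Slco1a1 was 206, 293, 104, 436 and 248 CPM in WT and 90.8, 60.6, 23.4, 1.55 and 29.3 CPM in Akita kidneys. For Slco1a1, every Akita mouse was below every WT mouse on water and on MitoQ alike. Slco1a1 had a log2 fold change of -2.93 ± 0.32 (SE) with the 4 treatments together, at an edgeR adjusted p of 2.8e-09. By treatment Slco1a1 fell in Akita mice at log2 fold changes of -3.15 ± 0.17 (SE) on ethanol (edgeR adjusted p 2.4e-07) and -2.61 ± 0.54 (SE) on MitoGamide (edgeR adjusted p 0.01). For Slco1a1 the log2 difference was -3.29 ± 0.71 (SE) on water (edgeR adjusted p 0.073) and -2.65 ± 0.72 (SE) on MitoQ (edgeR adjusted p 0.16), and edgeR called neither. DESeq2 called Slco1a1 lower on water (DESeq2 adjusted p 0.0014) and on MitoQ (DESeq2 adjusted p 0.043). Slco1a1 was without overlap in each of the 4 treatments.

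Slc22a30, at chr19:8335371-8405111 on the minus strand, belongs to the organic anion transporter family. Slc22a30 stood at 199, 142, 145, 179 and 174 CPM in the WT mice given ethanol and at 79.1, 63.6, 51.6, 72.6 and 81.8 CPM in the Akita mice. The levels of Slc22a30 on MitoGamide were 220.4, 163, 171, 182 and 158 CPM in WT mice and 80.999, 72.1, 51.1, 85.1 and 11.8 CPM in Akita mice. For Slc22a30, every Akita mouse was below every WT mouse on ethanol and on MitoGamide alike. With water, Slc22a30 was 183, 122, 183, 139.5 and 159 CPM in WT and 66.01, 57.7, 118, 25.03 and 104 CPM in Akita kidneys. Under MitoQ, Slc22a30 was 170.0, 189, 148, 155 and 197 CPM in WT and 101, 124, 103, 19.3 and 78.4 CPM in Akita kidneys. For Slc22a30, every Akita mouse was below every WT mouse on water and on MitoQ alike. Slc22a30 had a log2 fold change of -1.23 ± 0.17 (SE) with the 4 treatments together, at an edgeR adjusted p of 6.4e-07. By treatment Slc22a30 fell in Akita mice at log2 fold changes of -1.25 ± 0.12 (SE) on ethanol (edgeR adjusted p 4.3e-05) and -1.53 ± 0.37 (SE) on MitoGamide (edgeR adjusted p 0.02). For Slc22a30 the log2 difference was -1.097 ± 0.33 (SE) on water (edgeR adjusted p 0.28) and -1.005 ± 0.36 (SE) on MitoQ (edgeR adjusted p 0.35), and edgeR called neither. Its neighbour Slc22a28, which shares 67.0% of its 31-base words with Slc22a30, fell by 1.17 on ethanol and 1.44 on MitoGamide on the log2 scale, the MitoGamide call being lost in 5 of 10 fits that each left out 1 mouse, and how reads were split between them was not tested.

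Slc7a13, at chr4:19818725-19842218 on the plus strand, encodes an acidic amino acid and cystine transporter of the late proximal tubule. Slc7a13 stood at 525, 469, 382, 405 and 331 CPM in the WT mice given ethanol and at 203, 131, 127, 86.2 and 151 CPM in the Akita mice. The levels of Slc7a13 on MitoGamide were 439, 543, 455, 386 and 422 CPM in WT mice and 144, 181, 170.5, 204 and 16.05 CPM in Akita mice. For Slc7a13, every Akita mouse was below every WT mouse on ethanol and on MitoGamide alike. With water, Slc7a13 was 421, 270.0, 259, 273 and 464 CPM in WT and 72.3, 75.8, 154, 63.04 and 59.3 CPM in Akita kidneys. Under MitoQ, Slc7a13 was 362, 379.6, 175, 349.9 and 449 CPM in WT and 176, 218, 170.4, 21.2 and 165 CPM in Akita kidneys. For Slc7a13, every Akita mouse was below every WT mouse on water, while the genotypes overlapped on MitoQ. Slc7a13 had a log2 fold change of -1.61 ± 0.21 (SE) with the 4 treatments together, at an edgeR adjusted p of 1e-07. By treatment Slc7a13 fell in Akita mice at log2 fold changes of -1.58 ± 0.19 (SE) on ethanol (edgeR adjusted p 0.00014), -1.61 ± 0.45 (SE) on MitoGamide (edgeR adjusted p 0.034) and -1.999 ± 0.30 (SE) on water (edgeR adjusted p 0.014). For Slc7a13 the log2 difference was -1.19 ± 0.46 (SE) on MitoQ (edgeR adjusted p 0.42), which edgeR did not call. The MitoGamide call of Slc7a13 held in 3 of 10 fits that each left out 1 mouse. The water call of Slc7a13 held in 9 of 10 fits that each left out 1 mouse. The 5 late proximal tubule markers summed to 501 to 726 CPM in WT and 565 to 679.7 CPM in Akita mice on ethanol, overlapping ranges, with 2 of the 5 called higher and 1 lower there and 2 higher and 2 lower over the 4 treatments together.

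Cyp4b1, at chr4:115624725-115647723 on the minus strand, encodes a cytochrome P450 acting on fatty acids and foreign compounds. Cyp4b1 stood at 3106, 2729.6, 2846, 2647 and 2482 CPM in the WT mice given ethanol and at 1044, 885, 883, 1172 and 1043 CPM in the Akita mice. The levels of Cyp4b1 on MitoGamide were 2436, 2533, 2952, 2273 and 2299 CPM in WT mice and 878, 784, 750.0, 1121 and 679 CPM in Akita mice. For Cyp4b1, every Akita mouse was below every WT mouse on ethanol and on MitoGamide alike. With water, Cyp4b1 was 3013, 2499.7, 1878, 2559 and 2692 CPM in WT and 647, 678, 831, 508 and 638 CPM in Akita kidneys. Under MitoQ, Cyp4b1 was 2022, 2589, 1497, 2346 and 2264 CPM in WT and 1153, 986, 848, 316 and 1010.4 CPM in Akita kidneys. For Cyp4b1, every Akita mouse was below every WT mouse on water and on MitoQ alike. Cyp4b1 had a log2 fold change of -1.57 ± 0.11 (SE) with the 4 treatments together, at an edgeR adjusted p of 1.6e-14. By treatment Cyp4b1 fell in Akita mice at log2 fold changes of -1.44 ± 0.10 (SE) on ethanol (edgeR adjusted p 3.1e-06), -1.53 ± 0.15 (SE) on MitoGamide (edgeR adjusted p 0.00013) and -1.94 ± 0.21 (SE) on water (edgeR adjusted p 0.003). For Cyp4b1 the log2 difference was -1.31 ± 0.31 (SE) on MitoQ (edgeR adjusted p 0.095), which edgeR did not call. DESeq2 called Cyp4b1 lower on MitoQ (DESeq2 adjusted p 0.0016). Cyp4b1 had the smallest joint adjusted p of the 33 members.

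Cyp4a12a encodes an arachidonic acid omega-hydroxylase, at chr4:115299046-115332815 on the plus strand. Cyp4a12a stood at 174, 211, 122, 83.5 and 174 CPM in the WT mice given ethanol and at 46.6, 38.6, 9.46, 53.7 and 42.7 CPM in the Akita mice. The levels of Cyp4a12a on MitoGamide were 149.5, 90.4, 147, 143 and 171 CPM in WT mice and 50.6, 52.99, 38.01, 48.1 and 8.94 CPM in Akita mice. For Cyp4a12a, every Akita mouse was below every WT mouse on ethanol and on MitoGamide alike. With water, Cyp4a12a was 211, 54.9, 78.1, 67.1 and 175 CPM in WT and 11.8, 5.25, 23.2, 3.27 and 21.3 CPM in Akita kidneys. Under MitoQ, Cyp4a12a was 82.6, 139, 47.8, 157 and 103 CPM in WT and 31.7, 57.1, 35.3, 5.64 and 46.4 CPM in Akita kidneys. For Cyp4a12a, every Akita mouse was below every WT mouse on water, while the genotypes overlapped on MitoQ. Cyp4a12a had a log2 fold change of -2.13 ± 0.27 (SE) with the 4 treatments together, at an edgeR adjusted p of 6.4e-08. By treatment Cyp4a12a fell in Akita mice at log2 fold changes of -1.97 ± 0.34 (SE) on ethanol (edgeR adjusted p 0.0017), -1.78 ± 0.35 (SE) on MitoGamide (edgeR adjusted p 0.0084) and -3.199 ± 0.58 (SE) on water (edgeR adjusted p 0.034). For Cyp4a12a the log2 difference was -1.59 ± 0.48 (SE) on MitoQ (edgeR adjusted p 0.23), which edgeR did not call. DESeq2 called Cyp4a12a lower on MitoQ (DESeq2 adjusted p 0.034). The water call of Cyp4a12a held in 3 of 10 fits that each left out 1 mouse. Its neighbour Cyp4a12b shares 62.9% of its 31-base words with Cyp4a12a and was not called by edgeR in any treatment (joint log2 fold change 0.43 ± 0.17 (SE), edgeR adjusted p 0.063). DESeq2 called Cyp4a12b higher on MitoQ (log2 fold change 1.05, DESeq2 adjusted p 0.021) and in the joint fit (0.44, DESeq2 adjusted p 0.042). The split of reads between the 2 genes is uncertain.

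The remaining cytochrome P450 genes taken as androgen-induced had fewer calls. Cyp2j13 and Cyp2j5 encode arachidonic acid epoxygenases and fell on ethanol at log2 fold changes of -1.28 and -0.38, with edgeR adjusted p of 0.001 and 0.0093. Cyp2j5 also fell on MitoGamide (-0.50, edgeR adjusted p 0.011). Cyp7b1, an oxysterol and steroid hydroxylase, was called by edgeR in the joint fit alone (-1.19 ± 0.32 (SE), edgeR adjusted p 0.0049), as was the male-specific steroid hydroxylase gene Cyp2d9 (-0.35 ± 0.12 (SE), edgeR adjusted p 0.037). Cyp7b1 varied widely in the WT mice, from 14.1 to 72.2 CPM on ethanol and from 19.2 to 102 CPM on water. DESeq2 also called Cyp7b1 lower on water (DESeq2 adjusted p 0.029), and Cyp2j13 on MitoGamide (DESeq2 adjusted p 0.047) and on water (DESeq2 adjusted p 0.0071).

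Acsm3 encodes a mitochondrial medium-chain acyl-CoA synthetase, at chr7:119760923-119787513 on the plus strand. Acsm3 stood at 642, 455, 439, 414 and 459.7 CPM in the WT mice given ethanol and at 102, 80.99, 51.7, 130.0 and 149 CPM in the Akita mice. The levels of Acsm3 on MitoGamide were 445, 334, 393, 335 and 562 CPM in WT mice and 142, 131, 101, 298 and 35.9 CPM in Akita mice. For Acsm3, every Akita mouse was below every WT mouse on ethanol and on MitoGamide alike. With water, Acsm3 was 534, 136, 149, 236 and 557 CPM in WT and 66.7, 38.1, 139.9, 34.4 and 43.3 CPM in Akita kidneys. Under MitoQ, Acsm3 was 352, 429.7, 138, 532 and 412 CPM in WT and 191, 199, 119, 14.95 and 103 CPM in Akita kidneys. For Acsm3, the genotypes overlapped both on water and on MitoQ. Acsm3 had a log2 fold change of -1.92 ± 0.25 (SE) with the 4 treatments together, at an edgeR adjusted p of 1.2e-07. By treatment Acsm3 fell in Akita mice at log2 fold changes of -2.21 ± 0.23 (SE) on ethanol (edgeR adjusted p 5.8e-05) and -1.51 ± 0.41 (SE) on MitoGamide (edgeR adjusted p 0.03). For Acsm3 the log2 difference was -2.34 ± 0.52 (SE) on water (edgeR adjusted p 0.084) and -1.57 ± 0.54 (SE) on MitoQ (edgeR adjusted p 0.31), and edgeR called neither. DESeq2 called Acsm3 lower on water (DESeq2 adjusted p 0.00031). The MitoGamide call of Acsm3 held in 3 of 10 fits that each left out 1 mouse. Of its 31-base words 36.4% are also in the overlapping gene Eri2.

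Nudt19, a peroxisomal coenzyme A hydrolase, fell on ethanol (-0.82 ± 0.10 (SE), edgeR adjusted p 0.00014) and in the joint fit (-1.03 ± 0.17 (SE), edgeR adjusted p 6.7e-06), and by DESeq2 also on MitoGamide (DESeq2 adjusted p 0.019) and on water (DESeq2 adjusted p 0.0054). Serpina1f, of the serine protease inhibitor family, was not called in any comparison, with a joint log2 difference of 0.26 ± 0.25 (SE) and levels of 5.27 to 58.9 CPM in Akita and 12.8 to 52.1 CPM in WT mice on MitoGamide.

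Prlr encodes the prolactin receptor, at chr15:10177238-10349180 on the plus strand, and is taken as androgen-repressed. Prlr stood at 8.78, 11.2, 12.4, 12.7 and 5.41 CPM in the WT mice given ethanol and at 32.04, 32.3, 41.1, 26.4 and 22.2 CPM in the Akita mice. The levels of Prlr on MitoGamide were 18.6, 41.1, 9.59, 16.7 and 7.65 CPM in WT mice and 14.9, 39.01, 37.7, 17.6 and 50.7 CPM in Akita mice. For Prlr, every Akita mouse was above every WT mouse on ethanol, while the genotypes overlapped on MitoGamide. With water, Prlr was 6.74, 6.34, 9.86, 7.53 and 5.604 CPM in WT and 15.9, 22.5, 13.6, 54.5 and 33.9 CPM in Akita kidneys. Under MitoQ, Prlr was 14.7, 10.3, 6.27, 6.89 and 18.1 CPM in WT and 19.98, 16.4, 17.9, 56.1 and 40.9 CPM in Akita kidneys. For Prlr, every Akita mouse was above every WT mouse on water, while the genotypes overlapped on MitoQ. Prlr had a log2 fold change of 1.43 ± 0.21 (SE) with the 4 treatments together, at an edgeR adjusted p of 1.6e-06. By treatment Prlr rose in Akita mice at log2 fold changes of 1.62 ± 0.21 (SE) on ethanol (edgeR adjusted p 0.00023) and 1.97 ± 0.36 (SE) on water (edgeR adjusted p 0.036). For Prlr the log2 difference was 0.82 ± 0.44 (SE) on MitoGamide (edgeR adjusted p 0.22) and 1.39 ± 0.39 (SE) on MitoQ (edgeR adjusted p 0.18), and edgeR called neither. DESeq2 called Prlr higher on MitoQ (DESeq2 adjusted p 0.022). The water call of Prlr held in 3 of 10 fits that each left out 1 mouse. Prlr was highest among Akita mice in MitoQ replicate 4, water replicate 4 and MitoGamide replicate 5, the 3 Akita mice with the lowest Kap.

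Slc7a12, at chr3:14480697-14505830 on the plus strand, encodes a neutral amino acid transporter found mainly in female mouse kidneys. Slc7a12 stood at 3.72, 4.05, 2.76, 4.33 and 0.966 CPM in the WT mice given ethanol and at 8.42, 3.71, 25.1, 13.8 and 14.9 CPM in the Akita mice. The levels of Slc7a12 on MitoGamide were 5.85, 12.6, 3.699, 3.87 and 1.502 CPM in WT mice and 0.793, 15.95, 23.97, 11.1 and 10.01 CPM in Akita mice. For Slc7a12, the genotypes overlapped both on ethanol and on MitoGamide. With water, Slc7a12 was 2.72, 0.627, 2.55, 2.44 and 3.02 CPM in WT and 6.19, 16.998, 8.03, 35.9 and 9.903 CPM in Akita kidneys. Under MitoQ, Slc7a12 was 6.02, 2.83, 0.865, 1.702 and 9.53 CPM in WT and 2.46, 11.03, 10.03, 17.9 and 13.6 CPM in Akita kidneys. For Slc7a12, every Akita mouse was above every WT mouse on water, while the genotypes overlapped on MitoQ. Slc7a12 had a log2 fold change of 1.81 ± 0.32 (SE) with the 4 treatments together, at an edgeR adjusted p of 3.3e-05. By treatment Slc7a12 rose in Akita mice at log2 fold changes of 2.08 ± 0.44 (SE) on ethanol (edgeR adjusted p 0.0063) and 2.77 ± 0.53 (SE) on water (edgeR adjusted p 0.044). For Slc7a12 the log2 difference was 1.27 ± 0.64 (SE) on MitoGamide (edgeR adjusted p 0.19) and 1.28 ± 0.55 (SE) on MitoQ (edgeR adjusted p 0.51), and edgeR called neither. The water call of Slc7a12 held in 2 of 10 fits that each left out 1 mouse.

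Slc22a7, at chr17:46432183-46438457 on the minus strand, encodes an organic anion transporter that is taken as androgen-repressed, and it fell. Slc22a7 stood at 84.05, 39.3, 64.9, 60.5 and 17.98 CPM in the WT mice given ethanol and at 8.56, 4.85, 9.604, 7.61 and 9.44 CPM in the Akita mice. The levels of Slc22a7 on MitoGamide were 29.5, 41.6, 24.7, 23.4 and 56.7 CPM in WT mice and 2.67, 8.69, 5.79, 18.3 and 1.49 CPM in Akita mice. For Slc22a7, every Akita mouse was below every WT mouse on ethanol and on MitoGamide alike. With water, Slc22a7 was 85.9, 34.4, 54.4, 47.4 and 80.2 CPM in WT and 6.13, 10.04, 20.4, 5.55 and 4.36 CPM in Akita kidneys. Under MitoQ, Slc22a7 was 80.04, 53.2, 28.3, 38.3 and 76.1 CPM in WT and 11.5, 32.5, 28.7, 1.55 and 10.7 CPM in Akita kidneys. For Slc22a7, every Akita mouse was below every WT mouse on water, while the genotypes overlapped on MitoQ. Slc22a7 had a log2 fold change of -2.34 ± 0.27 (SE) with the 4 treatments together, at an edgeR adjusted p of 8.6e-09. By treatment Slc22a7 fell in Akita mice at log2 fold changes of -2.72 ± 0.34 (SE) on ethanol (edgeR adjusted p 0.00017), -2.201 ± 0.51 (SE) on MitoGamide (edgeR adjusted p 0.016) and -2.704 ± 0.42 (SE) on water (edgeR adjusted p 0.015). For Slc22a7 the log2 difference was -1.71 ± 0.58 (SE) on MitoQ (edgeR adjusted p 0.31), which edgeR did not call. The water call of Slc22a7 held in 9 of 10 fits that each left out 1 mouse.

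The other 2 repressed genes were also lower. Timd2, a cell surface receptor for ferritin, fell on ethanol, from a WT range of 50.1 to 61.9 CPM to an Akita range of 19.3 to 34.8 CPM (-0.83 ± 0.13 (SE), edgeR adjusted p 0.00093), and on MitoGamide (-0.84 ± 0.16 (SE), edgeR adjusted p 0.0066). Akr1c18, a progesterone-reducing enzyme, was at most 4.19 CPM in any mouse, did not reach the mean of 10 counts needed for testing on MitoGamide, and was the 1 member called by edgeR on MitoQ (-2.73 ± 0.46 (SE), edgeR adjusted p 0.021). That call rests on few reads, a mean of 3.8 counts in the Akita mice on MitoQ, and was lost in 5 of the 10 fits that each left out 1 mouse. Its Akita mice on MitoQ held 0.0560 to 0.407 CPM and its WT mice 0.433 to 2.17 CPM.

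Among the members without an assigned direction, Cyp2d12, at chr15:82555072-82560403 on the plus strand, is a cytochrome P450 gene of the steroid- and drug-metabolizing family. Cyp2d12 stood at 108, 117, 174, 171 and 85.6 CPM in the WT mice given ethanol and at 36.2, 29.4, 66.4, 34.4 and 30.2 CPM in the Akita mice. The levels of Cyp2d12 on MitoGamide were 179, 165, 161, 139 and 117 CPM in WT mice and 28.6, 12.6, 38.7, 27.6 and 54.4 CPM in Akita mice. For Cyp2d12, every Akita mouse was below every WT mouse on ethanol and on MitoGamide alike. With water, Cyp2d12 was 117, 203, 153, 181 and 101 CPM in WT and 111, 86.6, 57.6, 52.9 and 23.8 CPM in Akita kidneys. Under MitoQ, Cyp2d12 was 130.4, 113, 175, 71.7 and 132 CPM in WT and 51.8, 61.6, 72.4, 28.9 and 40.3 CPM in Akita kidneys. For Cyp2d12, the genotypes overlapped both on water and on MitoQ. Cyp2d12 had a log2 fold change of -1.61 ± 0.17 (SE) with the 4 treatments together, at an edgeR adjusted p of 2.1e-09. By treatment Cyp2d12 fell in Akita mice at log2 fold changes of -1.73 ± 0.24 (SE) on ethanol (edgeR adjusted p 0.0004) and -2.21 ± 0.29 (SE) on MitoGamide (edgeR adjusted p 0.00091). For Cyp2d12 the log2 difference was -1.18 ± 0.35 (SE) on water (edgeR adjusted p 0.26) and -1.27 ± 0.26 (SE) on MitoQ (edgeR adjusted p 0.055), and edgeR called neither. DESeq2 called Cyp2d12 lower on water (DESeq2 adjusted p 0.045) and on MitoQ (DESeq2 adjusted p 0.00057). Of its 31-base words 15.8% are shared, mostly with Cyp2d9.

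Azgp1 encodes zinc-alpha-2-glycoprotein, a secreted protein linked to lipid mobilization, at chr5:137981520-137990233 on the plus strand. Azgp1 stood at 108, 92.5, 72.7, 69.1 and 86.8 CPM in the WT mice given ethanol and at 27.5, 20.5, 27.3, 16.3 and 26.5 CPM in the Akita mice. The levels of Azgp1 on MitoGamide were 88.1, 106, 103, 82.9 and 89.9 CPM in WT mice and 22.6, 24.3, 29.9, 25.3 and 12.6 CPM in Akita mice. For Azgp1, every Akita mouse was below every WT mouse on ethanol and on MitoGamide alike. With water, Azgp1 was 90.6, 51.9, 65.999, 64.3 and 80.9 CPM in WT and 17.7, 20.99, 25.4, 11.9 and 14.9 CPM in Akita kidneys. Under MitoQ, Azgp1 was 77.7, 83.5, 45.8, 83.3 and 89.1 CPM in WT and 31.8, 43.998, 30.1, 8.28 and 30.2 CPM in Akita kidneys. For Azgp1, every Akita mouse was below every WT mouse on water and on MitoQ alike. Azgp1 had a log2 fold change of -1.81 ± 0.13 (SE) with the 4 treatments together, at an edgeR adjusted p of 1.1e-13. By treatment Azgp1 fell in Akita mice at log2 fold changes of -1.85 ± 0.15 (SE) on ethanol (edgeR adjusted p 1.1e-05), -1.99 ± 0.18 (SE) on MitoGamide (edgeR adjusted p 0.00011) and -1.97 ± 0.22 (SE) on water (edgeR adjusted p 0.0032). For Azgp1 the log2 difference was -1.396 ± 0.34 (SE) on MitoQ (edgeR adjusted p 0.11), which edgeR did not call. DESeq2 called Azgp1 lower on MitoQ (DESeq2 adjusted p 0.0062).

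Hsd3b2 encodes a hydroxysteroid dehydrogenase and isomerase, at chr3:98709255-98724543 on the minus strand. Hsd3b2 stood at 215, 209, 174, 214 and 188 CPM in the WT mice given ethanol and at 84.7, 93.3, 53.5, 57.5 and 103 CPM in the Akita mice. The levels of Hsd3b2 on MitoGamide were 178, 185, 199, 200.1 and 199.8 CPM in WT mice and 97.9, 62.8, 69.7, 97.4 and 25.1 CPM in Akita mice. For Hsd3b2, every Akita mouse was below every WT mouse on ethanol and on MitoGamide alike. With water, Hsd3b2 was 151, 119, 122, 157 and 197 CPM in WT and 104, 91.7, 96.1, 43.4 and 89.9 CPM in Akita kidneys. Under MitoQ, Hsd3b2 was 157, 184, 198, 192 and 190.0 CPM in WT and 130.1, 128, 115, 42.96 and 76.6 CPM in Akita kidneys. For Hsd3b2, every Akita mouse was below every WT mouse on water and on MitoQ alike. Hsd3b2 had a log2 fold change of -1.13 ± 0.13 (SE) with the 4 treatments together, at an edgeR adjusted p of 1.7e-08. By treatment Hsd3b2 fell in Akita mice at log2 fold changes of -1.33 ± 0.16 (SE) on ethanol (edgeR adjusted p 0.00014) and -1.41 ± 0.28 (SE) on MitoGamide (edgeR adjusted p 0.0075). For Hsd3b2 the log2 difference was -0.82 ± 0.24 (SE) on water (edgeR adjusted p 0.24) and -0.89 ± 0.25 (SE) on MitoQ (edgeR adjusted p 0.19), and edgeR called neither. DESeq2 called Hsd3b2 lower on MitoQ (DESeq2 adjusted p 0.04). Of its own 31-base words 37.6% also occur in another gene, 14.8% of all words in Hsd3b3. Hsd3b4 of the same family was not called (joint 0.11 ± 0.11 (SE)), and all of its 31-base words are also in Gm10681, so its counts are uncertain.

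Cndp2 encodes a cytosolic dipeptidase, at chr18:84667465-84685702 on the minus strand. Cndp2 stood at 1245, 1187, 1143, 1187 and 891 CPM in the WT mice given ethanol and at 652, 518, 355, 286 and 537 CPM in the Akita mice. The levels of Cndp2 on MitoGamide were 817, 896, 1034, 967 and 1153 CPM in WT mice and 570.5, 456, 483, 642 and 154 CPM in Akita mice. For Cndp2, every Akita mouse was below every WT mouse on ethanol and on MitoGamide alike. With water, Cndp2 was 1228, 554, 379.7, 830.5 and 1222 CPM in WT and 377, 157, 362, 203 and 257 CPM in Akita kidneys. Under MitoQ, Cndp2 was 711, 1057, 318, 1117 and 801 CPM in WT and 626, 402, 362, 153 and 345 CPM in Akita kidneys. For Cndp2, every Akita mouse was below every WT mouse on water, while the genotypes overlapped on MitoQ. Cndp2 had a log2 fold change of -1.27 ± 0.17 (SE) with the 4 treatments together, at an edgeR adjusted p of 2.5e-07. By treatment Cndp2 fell in Akita mice at log2 fold changes of -1.25 ± 0.19 (SE) on ethanol (edgeR adjusted p 0.00068) and -1.04 ± 0.29 (SE) on MitoGamide (edgeR adjusted p 0.033). For Cndp2 the log2 difference was -1.64 ± 0.36 (SE) on water (edgeR adjusted p 0.084) and -1.09 ± 0.38 (SE) on MitoQ (edgeR adjusted p 0.32), and edgeR called neither. DESeq2 called Cndp2 lower on water (DESeq2 adjusted p 0.00083). The MitoGamide call of Cndp2 held in 3 of 10 fits that each left out 1 mouse.

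**Figure D3:**
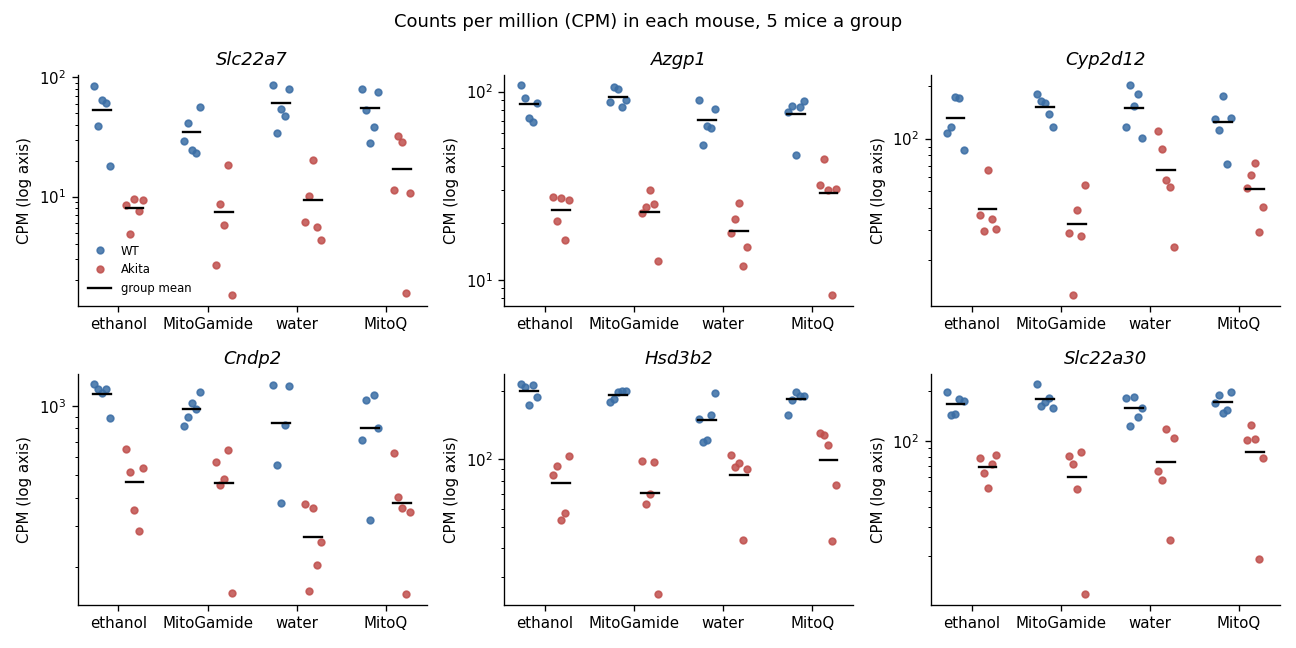
CPM on a log axis in each mouse of 6 further members, drawn as in the plot of Kap and Slco1a1, with WT mice in blue, Akita mice in red and bars at the group mean of 5 mice. The Akita means lie below the WT means in each panel and treatment, and the WT mice on water range from 379.7 to 1228 CPM for Cndp2.

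Of the other members without an assigned direction, Acsm2, a medium-chain acyl-CoA synthetase, fell on ethanol (-0.68 ± 0.09 (SE), edgeR adjusted p 0.00035) and on MitoGamide (-0.67 ± 0.16 (SE), edgeR adjusted p 0.019, lost without Akita MitoGamide replicate 2). Ugt8a, a ceramide galactosyltransferase, fell on ethanol (-0.74 ± 0.12 (SE), edgeR adjusted p 0.0012), and by DESeq2 also on MitoGamide (DESeq2 adjusted p 0.015). Tmem252, a small membrane protein gene, was called by edgeR in the joint fit (-0.70 ± 0.15 (SE), edgeR adjusted p 0.00061), and DESeq2 called it lower on water (DESeq2 adjusted p 0.0053) and on MitoQ (DESeq2 adjusted p 0.00089). Akr1c21, a steroid dehydrogenase gene listed at 232 to 1052 CPM, was not called in any comparison, with a joint log2 difference of 0.02 ± 0.14 (SE).

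Cyp2d26 and Slc22a29 rose. Cyp2d26, a cytochrome P450 gene, ranged from 70.5 to 94.1 CPM in WT and from 88.9 to 145 CPM in Akita mice on ethanol, and its log2 fold change there was 0.49 ± 0.12 (SE) (edgeR adjusted p 0.015). On MitoGamide all Akita mice exceeded the WT mice, at 93.1 to 245 CPM against 62.6 to 84.4 CPM (0.82 ± 0.24 (SE), edgeR adjusted p 0.04). This MitoGamide call of Cyp2d26 was lost without Akita MitoGamide replicate 3 and without each of the 5 WT mice in turn, and DESeq2 also called it higher on MitoQ (DESeq2 adjusted p 0.03). Slc22a29, an organic anion transporter gene, was low, with medians of 2.96 CPM in WT and 5.44 CPM in Akita mice on ethanol (0.76 ± 0.23 (SE), edgeR adjusted p 0.041), a call lost in 8 of 10 fits that each left out 1 mouse, and shares 44.0% of its 31-base words with other genes.

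The members also differed between mice of one group, more so in Akita mice: the standard deviation of log2 CPM around the group means was larger in the 20 Akita than in the 20 WT mice for 28 of the 33 members, with medians of 0.65 and 0.43, beside 37.6% of 17769 genes, with medians of 0.31 and 0.34. Single mice stood low for many members at once. Akita MitoQ replicate 4 was the lowest mouse of its group for 15 of the 16 induced genes, where 20.9% of all genes were lowest in it. Akita MitoGamide replicate 5 was lowest for 13 of the 16 (29.0% of all genes) and Akita water replicate 4 for 9 of the 16 (22.6% of all genes). These 3 mice held 122, 401 and 366 CPM of Kap and, of the androgen-repressed genes, 56.1, 50.7 and 54.5 CPM of Prlr, the highest Prlr values of their groups, and 1.55, 1.49 and 5.55 CPM of Slc22a7, the lowest Slc22a7 values of their groups for the first and second of these mice. Slc7a12 was highest of its group in the MitoQ and the water mouse and second lowest in the MitoGamide mouse. Among WT mice, MitoQ replicate 3 was lowest for 14 of the 16, but also for 37.4% of all genes. Akita ethanol replicate 3 was lowest for 9 of the 16 (25.3% of all genes), and WT ethanol replicate 5 and WT water replicate 3 each for 8 of the 16 (20.8% and 29.9% of all genes).

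Across the 40 mice, log2 levels centred on the group mean were compared for 3 pairs of members, with resampling inside groups. For Slco1a1 and Cyp4b1, both taken as induced, Pearson r was 0.82 (permutation p 2e-05, adjusted over 3 pairs 6e-05) and Spearman rho 0.69 (permutation p 1e-05, adjusted 3e-05), the last raw value being the smallest that 100000 resamples can give. Without Akita MitoQ replicate 4 and Akita water replicate 4, the 2 mice farthest from the median of Slco1a1, r was 0.69, and it was 0.86 within the 20 Akita mice and 0.61 within the 20 WT mice. Mice low in one of these genes tended to be low in the other. For Slco1a1 and Slc7a12, of opposite assigned direction, Pearson r was -0.37 (permutation p 0.0465, adjusted over 3 pairs 0.0698) and Spearman rho -0.34 (permutation p 0.0551, adjusted 0.0827), which did not pass the adjustment. Their r was -0.28 without the same 2 mice, -0.55 within the 20 Akita mice and 0.11 within the 20 WT mice. For Kap and Slc7a12, Pearson r was -0.20 (permutation p 0.317, adjusted over 3 pairs 0.317) and Spearman rho -0.12 (permutation p 0.499, adjusted 0.499). Their r was -0.14 without Akita MitoQ replicate 4 and Akita MitoGamide replicate 5, the 2 mice farthest from the median of Kap, and -0.38 within the 20 Akita mice and 0.52 within the 20 WT mice, of opposite sign.

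Neither drug moved a member past the threshold in either genotype when all mice were fitted. MitoGamide against ethanol in Akita mice called 1.26% of all 17051 genes and none of the 32 members tested, and no member had an unadjusted p under 0.05 there. DESeq2 called 636 genes higher and 386 lower in that comparison, none of them members. The median log2 difference of the members was 0.05, for Kap it was 0.22 ± 0.50 (SE) with a 95% interval of -0.87 to 1.30, and for Slco1a1 0.64 ± 0.51 (SE) with an interval of -0.46 to 1.74. In WT mice MitoGamide called 0% of genes (edgeR, none of 17395, with 1841 at an unadjusted p under 0.05 and 49 higher and 24 lower by DESeq2), and 7 members had an unadjusted p under 0.05, led by Gusb, with 30.04, 26.7, 31.3, 29.3 and 29.96 CPM on ethanol and 21.5, 21.6, 26.8, 20.05 and 26.8 CPM on MitoGamide (-0.33 ± 0.09 (SE), edgeR adjusted p 0.31).

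MitoQ against water called 0% of genes in Akita mice (edgeR, none of 18496, with 363 at an unadjusted p under 0.05 and none called by DESeq2) and 0% in WT mice (none of 17881, with 575 at an unadjusted p under 0.05 and 2 called by DESeq2). Of the members, 2 in Akita and 2 in WT mice had an unadjusted p under 0.05. In Akita mice 27 of the 32 members tested had a positive difference, beside 46.7% of all genes. The median there was 0.41 for the members and -0.016 for all genes. Kap differed by 1.07 ± 0.73 (SE) with a 95% interval of -0.51 to 2.66, and Cyp4a12a by 1.46 ± 0.59 (SE) with an interval of 0.19 to 2.73 and an edgeR adjusted p of 0.999. These intervals are wide and no member was called. In WT mice the median of the members was 0.05.

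**Figure D4:**
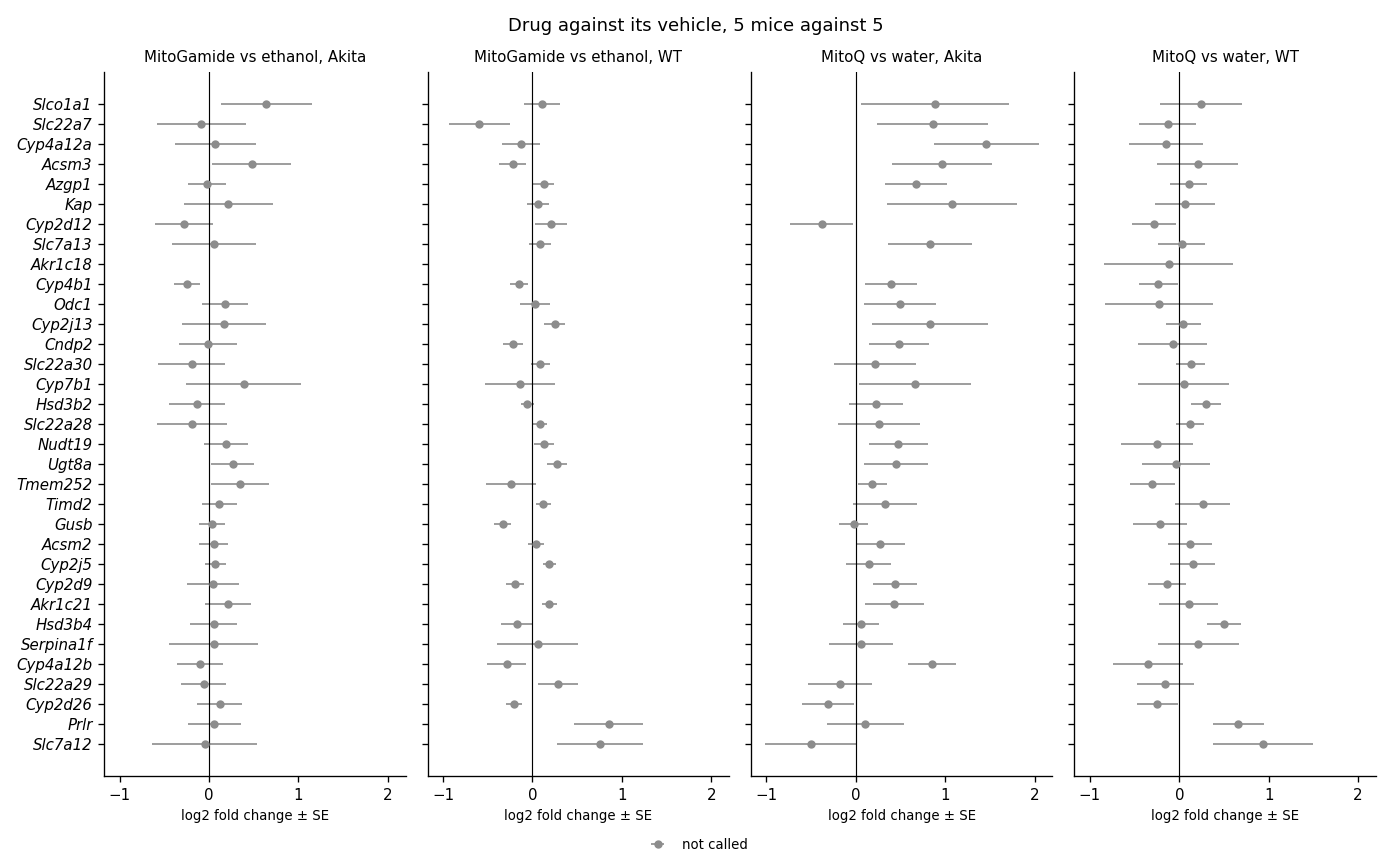
Log2 fold change (x axis, ± SE, 5 mice against 5) of the 33 members for each drug against its vehicle in each genotype, in the same order as the plot of genotype effects. No point is called, and in Akita mice on MitoQ 27 of the 32 members tested lie to the right of 0, beside 46.7% of all genes with a positive difference.

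Whether the genotype effect itself depended on treatment was tested with interaction terms. No member and 0% of all genes were called for MitoGamide against ethanol (edgeR, with 1435 of 17256 genes and 0 members at an unadjusted p under 0.05, and none called by DESeq2), for MitoQ against water (207 of 18225 genes and 1 member, 1 gene by DESeq2) or for ethanol against water (767 of 18050 genes and 1 member, 2 genes by DESeq2). The member was Cyp4a12b for MitoQ against water and Cyp4b1 for ethanol against water. The different counts of calls between treatments are therefore not shown to be different effects. The comparisons share mice, since the Akita ethanol mice enter both the genotype and the drug comparison.

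A further 22 genes of androgen signalling and hormone response were chosen for this purpose, also with earlier results of these data known. Of these 22, 9 fell and 2 rose over the 4 treatments together, beside 11.8% and 11.0% of all genes. On ethanol 7 fell and 2 rose, beside 8.22% and 8.18% of all genes. On MitoGamide 4 fell (6.60% of all genes), on MitoQ 1 fell (0.292% of all genes), and none rose in either. None was called on water. The members of this list that were called over the 4 treatments together are given here, with values by mouse for the one of most negative fold change.

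Srd5a2, encoding a steroid 5-alpha reductase that makes dihydrotestosterone, had the most negative fold change of the 22 (-1.82 ± 0.16 (SE), edgeR adjusted p 2.6e-11). Srd5a2 was low, at 9.48, 5.14, 4.24, 3.96 and 5.32 CPM in WT and 2.16, 2.22, 1.91, 1.82 and 1.75 CPM in Akita mice on ethanol, and on water at 12.7, 2.07, 3.505, 4.35 and 7.27 CPM against 1.62, 1.83, 1.53, 1.51 and 0.660 CPM. In each treatment every Akita mouse was below every WT mouse. The steroid receptor chaperones Hsp90aa1 (-0.78 ± 0.10 (SE), edgeR adjusted p 1e-07) and Hsp90ab1 (-0.71 ± 0.07 (SE), edgeR adjusted p 1.5e-10) fell, as did their co-chaperone Fkbp4 (-0.48 ± 0.08 (SE), edgeR adjusted p 1.6e-05), whereas the co-chaperone Fkbp5, itself inducible by androgens and glucocorticoids, rose (0.46 ± 0.14 (SE), edgeR adjusted p 0.012). Also lower were the growth hormone receptor gene Ghr (-0.45 ± 0.11 (SE)), the estrogen receptor gene Esr1 (-0.36 ± 0.13 (SE)), the corepressor gene Ncor1 (-0.31 ± 0.04 (SE)) and the coactivator genes Ncoa2 (-0.17 ± 0.04 (SE)) and Ncoa3 (-0.11 ± 0.04 (SE)), and Ncoa4 rose (0.53 ± 0.15 (SE)).

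**Figure D5:**
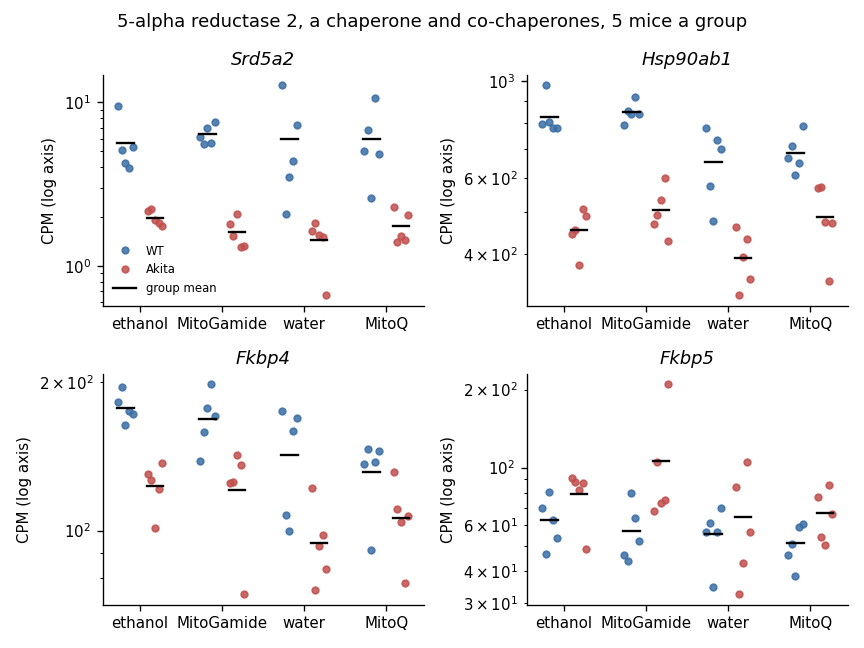
CPM on a log axis in each mouse of the reductase gene Srd5a2, the chaperone gene Hsp90ab1 and the co-chaperone genes Fkbp4 and Fkbp5, by treatment (x axis), with WT mice in blue, Akita mice in red and bars at the group mean of 5 mice. All Akita values of Srd5a2 lie no higher than 2.29 CPM, and in each treatment below every WT value.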

How the data were processed

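Total RNA of renal cortex, 1 mouse per library, was depleted of ribosomal RNA and sequenced as single reads from stranded libraries. Reads were trimmed with Skewer and assigned to GENCODE mouse transcripts on GRCm38 with kallisto 0.46.1 (R 4.0.2 is also named in the submitters' processing notes), and the authors deposited estimated counts per gene as whole numbers. Estimated counts split reads shared by similar genes, which matters for several members.

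From these counts edgeR 4.0.16 (R 4.3.3) was run here with TMM scaling, keeping genes that averaged 10 or more counts in the fitted libraries, the quasi-likelihood test and Benjamini-Hochberg adjustment over all genes tested, with calls at an adjusted p under 0.05. Akita and WT mice were compared within each treatment, over 4 treatments with treatment as a term, and by interaction terms, and each drug was compared with its vehicle. DESeq2 1.42.0, other scaling and filters, a replicate block, all 40 libraries in 1 fit and leaving out single mice were alternatives. The fits were tested on simulated data. Libraries of a group differed by more than counting noise (smallest chi-square per degree of freedom 8.88). Comparisons with a common group share its mice. Precision is limited by 5 mice a group.

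The members and gene lists were chosen with earlier results of these data known. Values by mouse are given for members called in at least 2 of the 4 genotype comparisons in 1 direction, at most 14 by joint p, and for Kap, Gusb, Odc1, Slco1a1, Cyp4b1, Slc7a12 and Prlr. Genes of the androgen signalling list are reported when called, and 1 item is not reported here. Gene positions are from GENCODE M21 on GRCm38, which held 55141 of 55401 gene identifiers, and upstream sequences from RefSeq on GRCm38.p6.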

Additional observations from a re-analysis of the deposited data

Results flagged for a closer look

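Single mice far from the other 4 of their group were looked for in the 16 members whose values are given by mouse. The measure was the gap between the most extreme mouse and its neighbour on log2 CPM, as a share of the group's range. A share above 0.71, Dixon's 95% value for 5 samples, was flagged. The levels below are in CPM, on which the shares differ. Of 128 groups 25 were flagged on log2 CPM, where chance flags about 1 in 20 groups, or 6.4 of 128. The groups share mice, so they are not independent.

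Akita MitoQ replicate 4 was low in Kap at 122 CPM against 3176 to 5142 CPM in the other 4, Cyp4b1 at 316 CPM against 848 to 1153 CPM in the other 4, Cyp4a12a at 5.64 CPM against 31.7 to 57.1 CPM in the other 4, Acsm3 at 14.95 CPM against 103 to 199 CPM in the other 4, Azgp1 at 8.28 CPM against 30.1 to 43.998 CPM in the other 4, Slc22a30 at 19.3 CPM against 78.4 to 124 CPM in the other 4 and Slc7a13 at 21.2 CPM against 165 to 218 CPM in the other 4. Akita MitoGamide replicate 5 was low in Odc1 at 147 CPM against 318 to 412 CPM in the other 4, Cyp4a12a at 8.94 CPM against 38.01 to 52.99 CPM in the other 4, Slc22a30 at 11.8 CPM against 51.1 to 85.1 CPM in the other 4, Slc7a13 at 16.05 CPM against 144 to 204 CPM in the other 4 and Cndp2 at 154 CPM against 456 to 642 CPM in the other 4. WT MitoQ replicate 3, the library with the lowest TMM factor, was low in Kap at 3347 CPM against 7019 to 8033 CPM in the other 4, Slc7a13 at 175 CPM against 349.9 to 449 CPM in the other 4 and Azgp1 at 45.8 CPM against 77.7 to 89.1 CPM in the other 4.

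Akita ethanol replicate 3 was high in Cyp2d12 at 66.4 CPM against 29.4 to 36.2 CPM in the other 4 and low in Cyp4a12a at 9.46 CPM against 38.6 to 53.7 CPM in the other 4 and Gusb at 12.2 CPM against 17.3 to 19.2 CPM in the other 4. Akita water replicate 4 was low in Hsd3b2 at 43.4 CPM against 89.9 to 104 CPM in the other 4, and Akita water replicate 3 was high in Slc7a13 at 154 CPM against 59.3 to 75.8 CPM in the other 4. Akita MitoGamide replicate 1 was low in Slc7a12 at 0.793 CPM against 10.01 to 23.97 CPM in the other 4, and WT water replicate 2 in Slc7a12 at 0.627 CPM against 2.44 to 3.02 CPM in the other 4. WT ethanol replicate 1 was high in Acsm3 at 642 CPM against 414 to 459.7 CPM in the other 4, WT ethanol replicate 5 low in Cndp2 at 891 CPM against 1143 to 1245 CPM in the other 4 and WT MitoGamide replicate 2 low in Cyp4a12a at 90.4 CPM against 143 to 171 CPM in the other 4.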

How the results depend on the processing

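The 16 members given by mouse had 1198 results over the refits, 1 per member and refit. Of these 1101 kept the direction and the side of the threshold, 60 lost the call, 37 gained one and 0 reversed. Members share each refit and uncalled members that stayed uncalled are included, so the 1198 are not independent checks. With the 4 treatments together the counts stayed between 23 and 25 lower and 3 and 5 higher over all settings. DESeq2 called 15 members lower on water (5 in edgeR), and 8 lower and 3 higher on MitoQ (1 and 0). Shared dispersion over all 40 libraries gave 15 lower on water, 4 lower on MitoQ and 2 higher on ethanol (4 in its own fit), beside 357, 164 and 396 of all 17769 genes. On MitoQ 2 were lower with no count filter, beside 58 of all 35529 genes. With at least 10 counts in every library 0 were, beside 45 of all 14088 genes, and Akr1c18 was not tested there. The causes of the other changes were not tested. Same-numbered mice did not deviate together throughout. This was so (r above 0.1) in 9 of 40 same-numbered pairs, each among water and MitoQ mice, and in none of 8 comparisons for all pairs. Over the 40 pairs r ran from -0.45 to 0.66, and whether libraries shared a batch was not tested. With the replicate block water had 3 members lower and 0 higher, beside 21 and 11 of all 18304 genes (67 and 34 in the main fit). Prlr, Slc22a7, Slc7a12 and Slc7a13 lost the call on water with the block, and Cndp2 on MitoGamide. With the block MitoGamide against ethanol in Akita mice called 0 genes (edgeR, with 2859 at an unadjusted p under 0.05).

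Leaving out each mouse in turn gave 21 to 22 lower and 3 to 4 higher members on ethanol. On MitoGamide it gave 11 (without Akita MitoGamide replicate 2) to 20 (without Akita MitoGamide replicate 5) lower and 0 to 2 higher, the 1 higher call, Cyp2d26, being lost without Akita replicate 3 or any single WT mouse. On water it gave 2 (without Akita water replicate 4) to 6 lower and 0 to 2 higher, both higher calls being lost in 7 of the 10 fits. On MitoQ it gave 0 to 6 lower (6 without WT MitoQ replicate 3, 2 without WT MitoQ replicate 4, 0 without Akita replicate 5 or WT replicate 1 or 5) and 0 higher. Drug counts stayed at 0 but for 0 to 1 for MitoGamide in Akita mice, where Ugt8a was called without Akita MitoGamide replicate 5, and interaction counts stayed at 0. Akr1c18 rests on few reads, with group means of 3.8 to 24.4 counts. The fits without WT water replicate 1 and WT MitoQ replicate 3, and without the 3 Akita mice of lowest Kap, were chosen after seeing the data.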
